A study of Rattus norvegicus with 4 samples.

Results

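The nuclei described here were excitatory neurons of the rat orbitofrontal cortex that carried the RNA of layer 6 corticothalamic (L6 CT) neurons. They were chosen from their own counts. A nucleus had at least 500 detected genes, at most 5% mitochondrial UMIs (unique molecular identifiers, each counting 1 captured transcript), at least 3 UMIs of the excitatory genes Slc17a7 and Camk2a together and at most 1 UMI of the inhibitory genes Gad1 and Gad2. Its UMIs of Foxp2, Syt6 and Dnah6 together had to reach 3 and exceed 2 times those of each of 5 other panels of 3 genes. Those panels stand for L2/3, L4/5 and L6 intratelencephalic (IT), L5 extratelencephalic (ET) and L5/6 near-projecting (NP) neurons. The rule took 1644 of 46633 deposited barcodes, and 1644 of the 11133 nuclei assigned to any of the 6 panels. The other 5 panels together held 9489 nuclei: 3655 L2/3 IT, 3584 L4/5 IT, 1224 L6 IT, 711 L5 ET and 315 NP. Most nuclei pooled as the other panels were therefore L2/3 or L4/5 IT. Since the rule's UMIs chose the nuclei, every comparison of levels with the other panels is a description with no test. Only the METH effect was tested between the class and the other panels.

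Corticothalamic neurons lie in layer 6 and send their axons to the thalamus, with side branches to the thalamic reticular nucleus and to the layers above. Through these axons the cortex sets the gain of the sensory and limbic signals that the thalamus returns to it. In rodents the class is known for the transcription factor Foxp2, the synaptotagmin Syt6, the cofactor Zfpm2 and the corepressor Tle4, while L6b neurons beneath it and L6 IT neurons beside it carry other genes.

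All animals were male Sprague-Dawley rats aged 8 weeks, listed as wild-type. The METH group received methamphetamine, a psychostimulant that drives monoamines such as dopamine out of nerve terminals, at 1 mg/kg for 7 days by intraperitoneal injection, and the saline group received saline on the same days. Tissue was taken from 4 rats per group and is represented by 2 libraries per group, and the title of the series speaks of METH-induced sensitization. The labels do not say which rats each library holds. Every p-value below therefore measures the spread between libraries alone, and that spread may be technical.

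Values of single libraries are given in the order METH replicate 1, METH replicate 2, saline replicate 1 and saline replicate 2. The L6 CT nuclei numbered 432, 285, 464 and 463 and held 2352487, 1892869, 1538991 and 2845001 UMIs. Their median UMI count per nucleus was 5004, 6404, 2905 and 5484, and their median number of detected genes 2396, 2767, 1686 and 2567. Saline replicate 1 stood apart, with the most barcodes and the shallowest nuclei. Scrublet, ranked within each library at 0.8% per 1000 barcodes, flagged 39, 29, 79 and 42 of the L6 CT nuclei as likely doublets, or 9.03%, 10.2%, 17.0% and 9.07%. This ranking fixed the flagged share of all barcodes from their number, at 8.22%, 7.14%, 15.2% and 6.78%. Across all libraries 241 of 46390 distinct barcodes occurred in 2 or more libraries, and 0 of the L6 CT barcodes did.

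The rule's own genes were unequally represented. Foxp2, the forkhead transcription factor, supplied 85.8%, 86.0%, 87.2% and 85.5% of the panel's UMIs, so that Syt6, a synaptotagmin of synaptic membranes, and Dnah6, a dynein heavy chain, added the rest. The median nucleus held 14, 17, 8 and 15 panel UMIs. Nuclei with Foxp2 as their only panel gene made up 20.8%, 24.2%, 41.4% and 19.4% of the class, and nuclei with all 3 genes 29.6%, 30.9%, 11.9% and 32.6%. Saline replicate 1 therefore held the largest share of nuclei resting on Foxp2 alone, and 55 of its nuclei had exactly 3 panel UMIs against 6, 6 and 8 in the other libraries.

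Zfpm2, a zinc finger cofactor of GATA factors that the rule did not use, gives a view of both sides of the thresholds. Nuclei just inside, with 3 panel UMIs, held 668, 815, 889 and 1501 CPM of Zfpm2 (CPM is the gene's count relative to the UMI total of the summed nuclei), from 6, 6, 55 and 8 nuclei. Just outside, 15 nuclei of saline replicate 1 with 2 panel UMIs held 620 CPM, and 3 nuclei of METH replicate 1 held 1089 CPM. A further 1109 nuclei passed all other gates and had at least 3 panel UMIs but not more than 2 times every other panel. Their Zfpm2 level was 579, 524, 576 and 513 CPM, between the class and the other 5 panels. The excitatory minimum left out more nuclei of the same kind. With at least 3 panel UMIs but fewer than 3 of Slc17a7 and Camk2a, 101, 65, 578 and 110 nuclei stayed outside, and they held 1467, 1174, 1333 and 1266 CPM of Zfpm2 and 1028, 1004, 1135 and 1016 CPM of Tle4. In saline replicate 1 these nuclei outnumbered the 464 inside, and their median UMI count was 1984.

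The label held for most genes fixed to check it, with some exceptions. Zfpm2 stood at 1690, 1509, 1366 and 1678 CPM, a mean of 1561 ± 153 CPM (SD, n = 4), against a mean of 175 CPM in the other 5 panels and 22.9 CPM in L6 IT nuclei. Tle4, a Groucho-family corepressor, stood at 1028, 1015, 1031 and 1118 CPM against 121 CPM in the other panels. Every library showed both genes far above the other panels. In nuclei thinned to 1500 UMIs, 86.7%, 84.6%, 84.7% and 86.5% of L6 CT nuclei had a Zfpm2 UMI (98.1%, 98.2%, 94.0% and 97.8% before thinning). The share was 18.4%, 16.6%, 19.4% and 17.5% in the other panels. In oligodendrocyte-marker nuclei, which give a background from free RNA, it was 13.3%, 11.5%, 26.3% and 12.2%. Median depths before thinning were 5004 to 6404 UMIs in the L6 CT nuclei of METH replicates 1 and 2, 3084 and 5491 UMIs in those of the saline replicates, and 1971 to 2098 UMIs in the oligodendrocyte-marker nuclei.

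Of 24 genes known for the class and outside the rule, Zfpm2 and Tle4 among them, 22 were in the files. Of these, 17 were above the other panels in every library, 9 of them more than 2-fold with 10 CPM added to each side. Cdh18, a cadherin, had a mean of 1348 CPM against 507 CPM. Tbr1, a T-box factor of early-born deep-layer neurons, had 80.7 CPM against 28.8 CPM, and Rprm, a gene named for cell cycle arrest, had 15.6 CPM against 0.959 CPM. Sox5, a factor of deep-layer fate, differed less, at 833 CPM against 508 CPM and 776 CPM in L6 IT nuclei. Foxp1, the relative of Foxp2, was nearly level at 622 CPM against 522 CPM. Slc24a4, a sodium/calcium exchanger, went the other way in every library, at 13.6 CPM against 110 CPM. Ntsr1, the neurotensin receptor whose promoter marks the class in mouse lines, had 1 UMI in all 1644 nuclei, in METH replicate 1. A count of 0 allowed up to 1.58, 1.95 and 1.05 CPM in the other libraries, taking 3 counts of each total, and these floors cover counting error only. Hs3st4 and Fam84b were not analysed here.

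The summed L6b and L6 IT lists were lower in the class than in the other panels, while some lists of other cells were not. The 8 L6b genes summed to 101, 78.7, 144 and 94.2 CPM in L6 CT nuclei and to 663, 610, 518 and 626 CPM in the other panels, and Trh was at 0 UMIs in the class. Most of both L6b sums was Kcnab1, at 85.9, 58.6, 118 and 71.7 CPM in the class. In the other panels Kcnab1 stood at 630, 559, 477 and 585 CPM, so the gap rested mainly on this gene. Ccn2, a defining L6b gene, had a mean of 0.528 CPM in the class. The 6 L6 IT genes in the files summed to 122, 144, 161 and 162 CPM, against 242, 203, 209 and 267 CPM in the other panels. L6 IT nuclei held 1154, 1144, 1292 and 1092 CPM. However, 3 of the 6 are the genes of the L6 IT panel, so the rule itself favoured this gap. Sulf1 of that panel was higher in the class, at 101, 115, 122 and 136 CPM. In the other panels it stood at 28.1, 27.5, 26.4 and 32.2 CPM. The 12 inhibitory genes summed to 79.1, 58.1, 133 and 102 CPM against 96.0, 71.9, 92.0 and 57.3 CPM in the other panels, so the class was higher in both saline libraries and lower in both METH libraries. The 7 NP genes, 3 of them the genes of the NP panel, summed to 369, 369, 227 and 369 CPM against 192, 163, 128 and 205 CPM. The astrocyte list summed to 453, 547, 526 and 459 CPM against 384, 429, 442 and 338 CPM, and the striatal neuron list to 1285, 1283, 1177 and 1222 CPM against 872, 893, 968 and 925 CPM. The NP, astrocyte and striatal sums were thus higher in the class than in the other panels in every library, as was the microglia sum given below. The 5 L5 ET genes in the files summed to 214, 239, 221 and 210 CPM against 228, 146, 208 and 208 CPM. Klhl1 of the L5 ET panel was higher in the class, at 198, 226, 189 and 185 CPM against 101, 58.8, 103 and 86.4 CPM. Chst8 of that panel was lower in the class in every library. The NP gap rested mainly on Trabd2b, at 287, 274, 154 and 259 CPM against 41.7, 28.3, 17.7 and 45.6 CPM. Vwc2l of the NP list was lower in the class in every library, and Tshz2 and Slc17a8 had 0 UMIs in the class. The striatal gap rested mainly on Meis2, at 939, 872, 765 and 838 CPM against 541, 540, 529 and 571 CPM. Saline replicate 1 had the highest L6b and inhibitory sums of the 4 libraries.

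Outside the rule, 100 of the 8761 genes at 10 CPM or more were above the other panels by over 2-fold in all 4 libraries, 9 of them by over 5-fold counting the lowest of the 4 folds, and 200 were at less than 0.5 times the other panels in all 4. Sema5a, a transmembrane semaphorin that steers growing axons, led by its lowest fold. It stood at 1210, 1145, 908 and 1209 CPM against a mean of 74.6 CPM in the other panels, a fold of 11.9 to 14.4. Hcrtr2, the orexin receptor 2 that receives the arousal peptides of the hypothalamus, stood at 226, 229, 120 and 188 CPM against 5.77 CPM, a fold of 8.32 to 16.1. Chrna5, the accessory nicotinic subunit that alters how receptors respond to acetylcholine, stood at 155, 179, 164 and 196 CPM against 10.4 CPM. All 3 genes were higher in each L6 CT library than in any library of the other panels together.

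NP nuclei shared part of this profile. They held 137 CPM of Chrna5, 504 CPM of Tle4 and 335 CPM of Sema5a on average, and 78.2 CPM of Hcrtr2, whereas L6 IT nuclei held 12.4, 67.7, 136 and 3.97 CPM. Grik3, a kainate receptor subunit, was even with NP nuclei at 546 against 581 CPM while above the other panels together at 125 CPM. Bcl11b, a factor of subcortically projecting neurons, had 284 CPM in L6 CT nuclei and 314 CPM in NP nuclei, against 78.6 CPM in the other panels together. In L6 IT nuclei Grik3 had 340 CPM and Bcl11b 99.5 CPM, so both genes stood higher in the L6 CT and NP means than in the L6 IT mean.

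**Figure D1:**
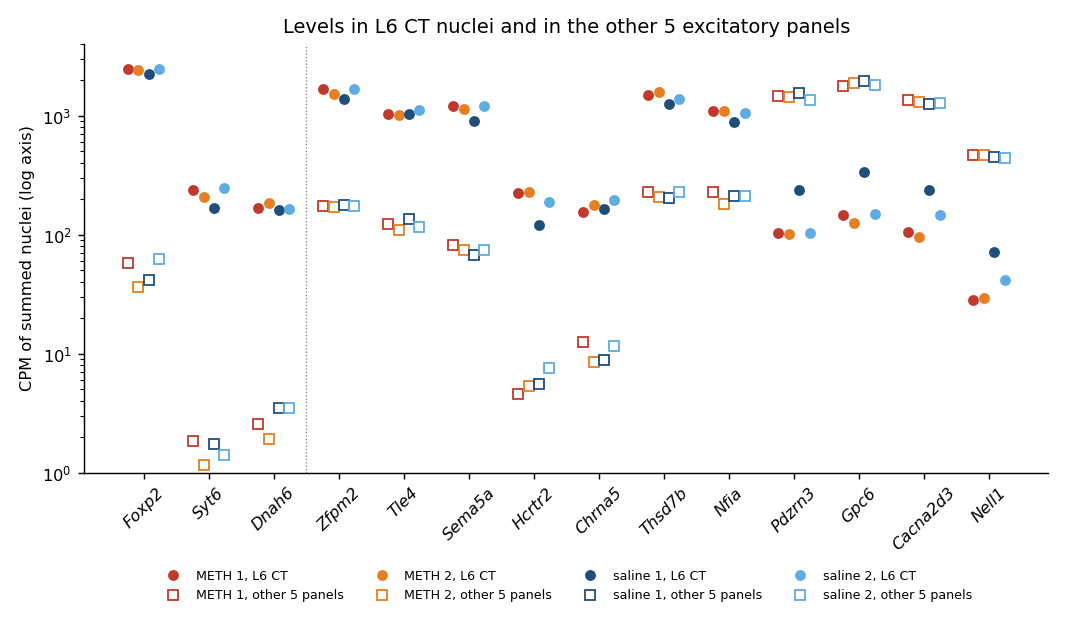
Levels per library, on a log axis in CPM of summed nuclei, in L6 CT nuclei (filled circles) and in the nuclei of the other 5 excitatory panels together (open squares). The 3 genes left of the dotted line are the rule's own; Zfpm2, Tle4, Sema5a, Hcrtr2, Chrna5, Thsd7b and Nfia lie higher and Pdzrn3, Gpc6, Cacna2d3 and Nell1 lower in L6 CT nuclei, and saline 1 is the highest L6 CT library for each of the last 4.

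The other leading genes fell into a few roles. Among surface and secreted proteins were Thsd7b, a thrombospondin-repeat protein at 1428 ± 135 CPM (SD, n = 4) against 216 CPM, the metalloprotease gene Pappa2 at 101 against 8.67 CPM, and the integrin gene Itga8 at 91.4 against 14.4 CPM. Sema3e, a secreted semaphorin, had 244 CPM against 45.2 CPM, but L6 IT nuclei held 206 CPM of it. Among receptors were Glra2, a glycine receptor subunit, at 159 against 15.1 CPM, and Vipr2, a receptor of the peptides VIP and PACAP, at 47.0 against 1.45 CPM. Signalling and cytoskeletal genes were Rai14, Clic5, Gng12, Dlc1, Rgs9 and Ddah1, with lowest folds from 8.26 for Rai14 down to 3.77 for Rgs9. Nfia, a nuclear factor I transcription factor, stood at 1029 against 208 CPM, Etl4 at 2349 against 494 CPM, and the solute carrier gene Slc35f1 at 493 against 91.3 CPM. Of these 20 leading genes, 14 had their lowest L6 CT level in saline replicate 1.

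Genes low in the class included Pdzrn3, a ubiquitin ligase, at 103, 101, 236 and 103 CPM against a mean of 1448 CPM. Gpc6, a glypican, stood at 146, 126, 333 and 148 CPM against 1851 CPM. Cacna2d3, an auxiliary subunit of calcium channels, stood at 106, 96.2, 237 and 145 CPM against 1300 CPM. Fstl4, Nell1, Thsd7a, Unc5d (a netrin receptor), Man1c1, Sntg2 and Tafa2 completed the 10 lowest. Saline replicate 1 was the highest L6 CT library for 9 of these 10 genes and for 168 of the 200 genes at less than 0.5 times the other panels. Summed over those 200 genes, the L6 CT level was 22.8%, 21.9%, 30.8% and 23.6% of the level in the other panels. The L6 CT sum of saline replicate 1 thus held more RNA typical of other neurons than the sums of the other 3 libraries.

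Receptors for modulators differed in level between L6 CT nuclei and the other panels. The mu opioid receptor gene Oprm1 stood at 354, 417, 314 and 387 CPM against 138 CPM, and the adrenergic receptor gene Adra1a at 251, 241, 211 and 236 CPM against 95.1 CPM. Ppp1r1b, which encodes the dopamine- and cAMP-regulated phosphoprotein DARPP-32, had 26.7 CPM against 5.39 CPM. The serotonin receptor gene Htr2a was lower in the class, at 28.3 against 95.4 CPM. Crhr1, the receptor of corticotropin-releasing hormone, had 5.16 against 43.4 CPM, the delta opioid receptor gene Oprd1 15.9 against 54.5 CPM, and Tacr3, a tachykinin receptor, 22.4 against 62.7 CPM. The immediate early gene Arc was higher in the class, at 42.1 against 18.2 CPM, and Bdnf, a neurotrophin, lower, at 16.9 against 57.2 CPM. Receptors on which METH-released dopamine acts were scarce. Drd1 had 1, 5, 1 and 4 UMIs, and Drd2 had 0, 0, 3 and 0 UMIs, where 0 allowed up to 1.28 CPM in METH replicate 1, 1.58 CPM in METH replicate 2 and 1.05 CPM in saline replicate 2.

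The share of L6 CT nuclei among the excitatory nuclei varied within each group as much as between them. Among nuclei assigned to the 6 panels the share was 16.2% (95% exact Clopper-Pearson interval 14.8 to 17.7%), 12.2% (10.9 to 13.6%), 13.2% (12.1 to 14.4%) and 17.6% (16.2 to 19.1%). The METH mean was 14.2% ± 2.81 and the saline mean 15.4% ± 3.10 (SD, n = 2 each). The difference of 1.17 percentage points, METH lower, was smaller than the spread within either group (exact two-sided permutation test, p = 0.667, where the smallest p the design allows is 0.333). Each group held a low and a high library, and the groups overlapped. Of all nuclei passing the quality gates, the class made up 4.42%, 3.33%, 2.67% and 5.67%.

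The share of the shallow library moved with the rule. With the excitatory minimum lowered to 1 UMI, an alternative chosen after seeing the data, saline replicate 1 rose to 18.7% and the 4 shares became 17.1%, 12.8%, 18.7% and 18.6%, a METH minus saline difference of -3.71 percentage points. When all nuclei were thinned to 1500 UMIs before the rule was applied, they were 21.3%, 13.3%, 14.4% and 18.1%, from 101, 50, 115 and 78 nuclei, with the difference at 1.11. This thinning left out 2722, 2258, 6419 and 1945 shallower nuclei of the quality gates. METH replicate 2 was lowest under each of these settings.

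**Figure D2:**
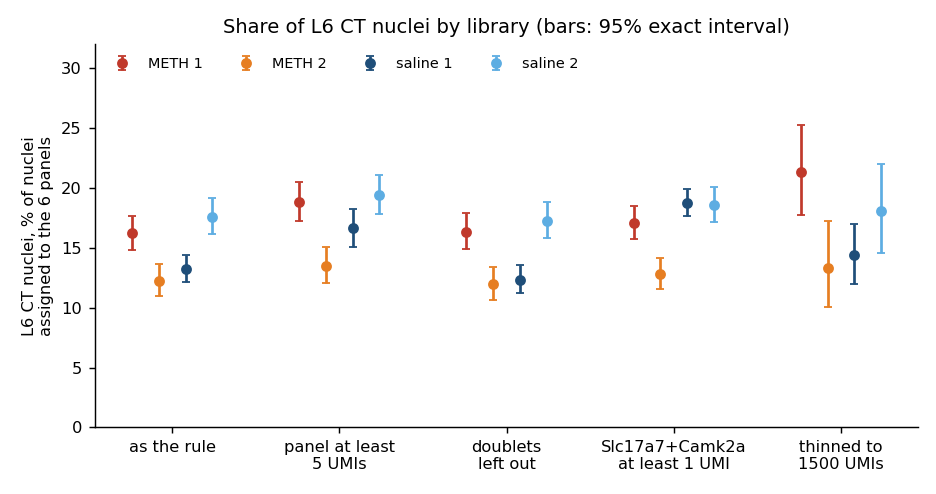
Share of L6 CT nuclei among nuclei assigned to the 6 panels, in percent by library, under the rule and under 4 changes to it, with 95% exact intervals for counting error. METH 2 is the lowest library in each setting, while saline 1 moves from 13.2% under the rule to 18.7% with the lower excitatory minimum.

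METH was compared with saline on the counts summed per library, to ask which genes of these neurons differed after the drug. Of 10321 genes tested with edgeR, 1 passed an adjusted p of 0.05, which is 0.00969% of those tested. It was Erbb4, lower after METH, and no gene passed in the other direction. At an unadjusted p under 0.05 there were 492 genes (4.77%), and DESeq2 called 0 genes at its adjusted threshold and 77 at the unadjusted one. The groups did not overlap for 1546 genes with METH above (15.0%) and for 1965 genes with METH below (19.0%). The median log2 fold change over all genes tested was -0.0018. Most genes of this class therefore showed no difference that 2 libraries per group could separate from their spread, and fewer L6 CT nuclei of a given state and less RNA per nucleus cannot be told apart in such sums.

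Erbb4, the neuregulin receptor best known from inhibitory neurons, stood at 20.4 and 17.4 CPM in the METH libraries and at 48.1 and 51.0 CPM in the saline libraries. Its log2 fold change was -1.37 (SE 0.193, edgeR adjusted p = 0.0219). The groups did not overlap, but the level came from few nuclei. Only 28, 15, 35 and 33 nuclei had an Erbb4 UMI (6.48%, 5.26%, 7.54% and 7.13%), and the 4 highest nuclei of each library held 43.8%, 60.6%, 43.2% and 64.8% of its UMIs. After thinning to 1500 UMIs the share of L6 CT nuclei with an Erbb4 UMI was 3.02%, 2.11%, 4.42% and 2.39% (6.51%, 5.26%, 7.91% and 7.17% before thinning in the same nuclei), against 2.29%, 2.36%, 3.38% and 1.94% in the other excitatory panels and 62.7%, 65.7%, 59.2% and 68.2% in oligodendrocyte-marker nuclei. The share in L6 CT nuclei was thus close to that of the other excitatory nuclei. The share in oligodendrocyte-marker nuclei lay far above both, so for Erbb4 it cannot be read as a background from free RNA.

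Nuclei with at least 3 Erbb4 UMIs numbered 5, 2, 5 and 10, and Scrublet had flagged 5, 2, 3 and 10 of them as doublets. They held 164, 581, 1191 and 361 CPM of the other 11 inhibitory genes of the list that holds Erbb4, against 56.4, 36.7, 71.6 and 40.7 CPM in the other L6 CT nuclei. They held 24, 16, 35 and 118 of the 48, 33, 74 and 145 Erbb4 UMIs. The minimum of 3 UMIs was chosen after the values were seen and uses the Erbb4 count itself, so this is a description only. With all flagged doublets left out of the fit the log2 fold change was -0.94 and the adjusted p 0.99, and with nuclei holding any Gad1 or Gad2 UMI left out it was -1.10 and 0.99. The call was also lost with DESeq2, with at least 5 panel UMIs, with equal numbers of nuclei and with the lower excitatory minimum. Over 16 alternatives the gene passed in 10, the adjusted p ranged from 2.1e-07 to 0.99, and the log2 fold change stayed negative, from -1.50 to -0.94.

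**Figure D3:**
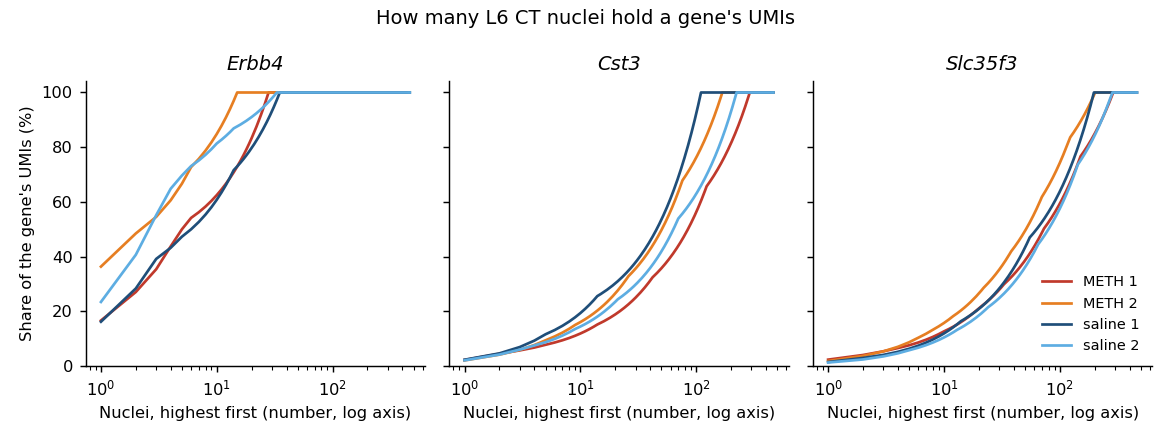
Cumulative share of a gene's UMIs, in percent, against the number of L6 CT nuclei ranked from the highest count down (log axis), by library, for Erbb4, Cst3 and Slc35f3. The 4 highest nuclei hold 43.2% to 64.8% of the Erbb4 UMIs but 4.67% to 7.05% of those of Slc35f3, whose UMIs are spread over many nuclei.

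Genes with the smallest p above Erbb4 are given as values, since none passed. They were taken only from genes with both METH libraries on the same side of both saline libraries. Slc35f3, a solute carrier family member, stood at 251 and 255 CPM after METH and at 174 and 188 CPM after saline (log2 fold change 0.49, SE 0.095, adjusted p = 0.313). Its UMIs were spread over 289, 202, 197 and 284 nuclei, and the METH libraries lay close together above both saline libraries. Plcxd3, a phospholipase family gene, stood at 247 and 207 against 152 and 170 CPM (0.50, adjusted p = 0.469). Cst3, the protease inhibitor cystatin C, stood at 207 and 151 against 83.8 and 117 CPM (0.82, adjusted p = 0.555). In the other 5 panels its log2 fold change was 0.93, the 1 gene of 14457 called there (0.00692%). The share of nuclei with a Cst3 UMI after thinning was 28.4%, 17.2%, 13.5% and 17.2% in L6 CT nuclei (67.2%, 58.9%, 24.7% and 47.8% before), 22.0%, 18.1%, 11.2% and 12.8% in the other panels, and 55.7%, 57.4%, 38.2% and 38.9% in oligodendrocyte-marker nuclei. METH libraries were thus higher than saline libraries in the other panels and in oligodendrocyte-marker nuclei too, and the part of free RNA in the L6 CT values was not tested.

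Further genes with small p and higher METH values were Adcy9, an adenylyl cyclase, at 969 and 998 against 748 and 843 CPM (0.32), and Sdk2, an adhesion molecule of synaptic layers, at 363 and 369 against 236 and 309 CPM (0.42). Fkbp5, a glucocorticoid-induced regulator of the glucocorticoid receptor, stood at 37.0 and 36.5 against 20.1 and 22.5 CPM (0.78, SE 0.200), with 87, 69, 31 and 64 UMIs. Kcne3, an accessory potassium channel subunit, had 39, 29, 7 and 16 UMIs, and B2m, the small chain of MHC class I, 38, 31, 9 and 23 UMIs. In each of these 5 genes the lower METH library exceeded the higher saline one, but genes without this were not considered for naming. The adjusted p was 0.387 for Kcne3 and 0.988 for the other 4.

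On the lower side, Col5a3, a fibrillar collagen chain, had 4, 4, 21 and 27 UMIs (log2 fold change -2.51, adjusted p = 0.313), Kcnip1, a potassium channel partner, 10, 3, 27 and 32 UMIs, and Stk32a, a kinase, 2, 1, 15 and 15 UMIs. These 3 genes rested on few nuclei, with 12 and 10 nuclei holding all Col5a3 UMIs of the saline libraries. Cdh6, a cadherin, stood at 34.0 and 28.0 against 53.9 and 48.9 CPM (-0.69, SE 0.177), Xrcc4, a DNA repair factor, at 75.2 and 67.1 against 105 and 96.3 CPM (-0.47), and Wdr76 at 7.65 and 3.70 against 19.5 and 13.4 CPM (-1.41). Nell1, a secreted protein, stood at 28.5 and 29.1 against 72.1 and 41.5 CPM (-0.90), and it is among the 10 genes lowest in the class against the other panels. The adjusted p of Cdh6, Xrcc4, Wdr76 and Nell1 was 0.988.

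**Figure D4:**
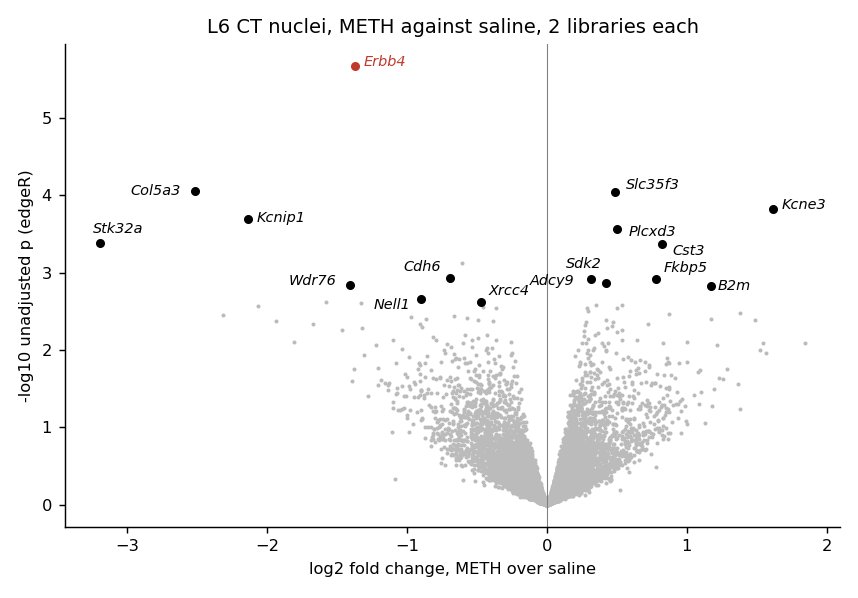
Log2 fold change of METH over saline against the unadjusted p of edgeR's test (as -log10) for the 10321 genes tested in L6 CT nuclei. Named are the 16 genes of smallest p, 8 in each direction, among those without placeholder name whose groups did not overlap. The 1 gene that passed, Erbb4, is in red. The named higher genes are smaller in fold than Col5a3, Kcnip1 and Stk32a, which rest on 1 to 32 UMIs per library.

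The rule's own genes are given as a description with no test, since their UMIs chose the nuclei. Foxp2 stood at 2443, 2406, 2238 and 2448 CPM (log2 fold change 0.06), Syt6 at 237, 208, 169 and 249 CPM (0.08) and Dnah6 at 168, 183, 160 and 166 CPM (0.12). For Zfpm2, at the levels given above, the log2 fold change was 0.08 (SE 0.093, edgeR adjusted p = 0.988). Of the 17 tested members of the list of class genes outside the rule, which includes Zfpm2, 12 had positive fold changes. The median was 0.08, and 0 passed. Grik3 stood at 601 and 596 against 475 and 514 CPM (0.29, SE 0.082) and Thsd7b at 1502 and 1565 against 1257 and 1388 CPM (0.22). In both genes saline replicate 1 was lowest, as it was for 61 of the 100 genes over 2-fold above the other panels.

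The genes that mark the class against its neighbours took their METH direction mostly from comparisons with saline replicate 1, the shallow library. Of the 20 leading genes, 14 had positive fold changes, with a median of 0.19, and without saline replicate 1 the median was 0.04. Of the 10 lowest genes, 9 had negative fold changes, with a median of -0.70, and without that library it was -0.20. Over the 177 tested genes of those at less than 0.5 times the other panels, the median was -0.23, and it was 0.002 without saline replicate 1 and -0.54 without saline replicate 2. No gene of these sets passed. Hcrtr2, the orexin receptor 2, stood at 226 and 229 against 120 and 188 CPM (log2 fold change 0.54, SE 0.162, adjusted p = 0.988), and 26.3%, 22.8%, 14.2% and 19.1% of nuclei held a UMI of it after thinning (47.7%, 48.4%, 25.3% and 45.4% before). The background in oligodendrocyte-marker nuclei was 0.333% to 2.63%.

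Whether the METH difference of a gene was another one in L6 CT nuclei than in the other 5 excitatory panels was tested with the class-by-treatment term, each library kept as a block. Of 13630 genes tested 1 passed (0.00734%). For Col5a3 the METH log2 fold change in L6 CT nuclei minus that in the other panels was -3.06 (SE 0.519, edgeR adjusted p = 0.0422), and its fold change in the other panels was 0.49. Its UMIs in the class lay in 4, 3, 12 and 10 nuclei, and the adjusted p was 1 with DESeq2 and with flagged doublets left out (-2.46), 0.0573 without robust estimation and 0.379 without METH replicate 1 (-2.56). It was 0.0191 without METH replicate 2, 0.00934 and 0.00525 without saline replicates 1 and 2, 0.0193 with no Gad1 or Gad2 UMI and 5.5e-05 with no filter on low counts. Next in order were Erbb4 (-1.54, adjusted p = 0.0528), Slc35f3 (0.54, adjusted p = 0.0558) and Hcrtr2 (0.95, adjusted p = 0.0709), which did not pass. Slc35f3 stood at 123, 124, 115 and 138 CPM in the other panels, so that its METH and saline libraries overlapped there.

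None of the genes of neuronal activity passed. Fos stood at 6.80 and 8.98 against 11.05 and 10.9 CPM (-0.47, SE 0.336), Arc at 39.5 and 45.4 against 43.5 and 39.7 CPM (0.05), Npas4 at 12.8 and 18.5 against 17.5 and 11.6 CPM (0.16) and Nr4a2 at 5.95 and 4.23 against 7.15 and 5.62 CPM (-0.25). Of 20 tested immediate early genes 12 had positive fold changes (median 0.05) and 0 passed. Fosb, a member of the AP-1 family, stood at 11.1 and 14.3 against 3.90 and 9.49 CPM (0.77, SE 0.371), from 26, 27, 6 and 27 UMIs, with saline replicate 1 lowest and both METH libraries above both saline libraries. Bdnf stood at 18.3 and 21.7 against 15.6 and 11.95 CPM (0.58, SE 0.261, edgeR adjusted p = 0.988). Its receptor gene Ntrk2 stood at 1362 and 1205 against 1009 and 1138 CPM (0.27, SE 0.084). All 5 tested genes of neurotrophins and their receptors had positive fold changes, with a median of 0.13, and 3 of them were higher in each METH library than in either saline library, against 15.0% of all genes tested.

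Among receptors for modulators, 0 of 4 tested dopamine and monoamine-enzyme genes, 0 of 6 serotonin and adrenergic receptors and 0 of 7 acetylcholine receptors passed. Maoa, which breaks down monoamines, stood at 37.0 and 44.4 against 44.2 and 46.7 CPM (-0.16) and its relative Maob had 11, 14, 7 and 23 UMIs. Adra1a had a fold change of 0.14 and the serotonin receptor gene Htr6 27, 18, 8 and 23 UMIs. Chrna7, a nicotinic subunit, stood at 73.5 and 74.0 against 93.6 and 76.6 CPM (-0.17) and Chrm5, a muscarinic receptor, at 11.9 and 11.6 against 11.05 and 8.08 CPM. Of 12 tested neuropeptides and receptors 8 had positive fold changes and 0 passed. Oprl1, the nociceptin receptor, had 6, 11, 15 and 16 UMIs.

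Fast transmission genes also held no gene that passed. Of 13 tested GABA receptor subunits 2 had positive fold changes, with a median of -0.11, and 5 had both METH libraries below both saline libraries, against 19.0% of all genes tested. Gabra5, the subunit of extrasynaptic GABA-A receptors, stood at 65.9 and 78.7 against 98.1 and 91.7 CPM (-0.38, SE 0.136), and Gabbr2, of the metabotropic receptor, at 843 and 775 against 679 and 754 CPM (0.19). The GABA median was -0.05 without saline replicate 1. Of 13 AMPA, kainate and NMDA subunits 9 had positive fold changes (median 0.03), and the kainate subunit gene Grik1 had 23, 11, 35 and 31 UMIs. Of 6 metabotropic glutamate receptors 1 was positive. Grm8, a presynaptic receptor, stood at 3063 and 3043 against 2744 and 3018 CPM (0.10).

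Lists of synapse and membrane genes had medians close to 0. Postsynaptic scaffolds had 10 of 16 positive (median 0.06), with the smallest p for Dlgap4 at 156 and 141 against 135 and 117 CPM (0.27) and Shank3 at 143 and 140 against 131 and 120 CPM (0.20). Synaptic vesicle genes had 14 of 22 positive (0.05), with Slc17a7, the glutamate transporter of vesicles that the rule used, at 327 and 285 against 440 and 338 CPM (-0.32) and the release protein gene Rims2 at 2346 and 2324 against 1971 and 2268 CPM (0.15). Potassium channels had 11 of 28 positive (-0.03), with Kcnj6, a G-protein-gated channel, at 130 and 112 against 79.3 and 110 CPM (0.34). Sodium, calcium and HCN channels had 12 of 19 positive (0.04), with Cacna2d3 at -0.86. Axon guidance and adhesion genes had 18 of 31 positive (0.02), with the guidance ligand gene Slit1 at 318 and 378 against 254 and 307 CPM (0.31) and the adhesion gene Lrrc4c at 1044 and 1042 against 1374 and 1123 CPM (-0.24). Neurexins, neuroligins and their partners had 6 of 10 positive (0.03), with Lrrtm4 at 767 and 842 against 1284 and 885 CPM (-0.41) and Nlgn3 at 25.5 and 31.2 against 21.4 and 21.8 CPM (0.39). In Lrrtm4, Lrrc4c and Cacna2d3 saline replicate 1 was the highest library by far.

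**Figure D5:**
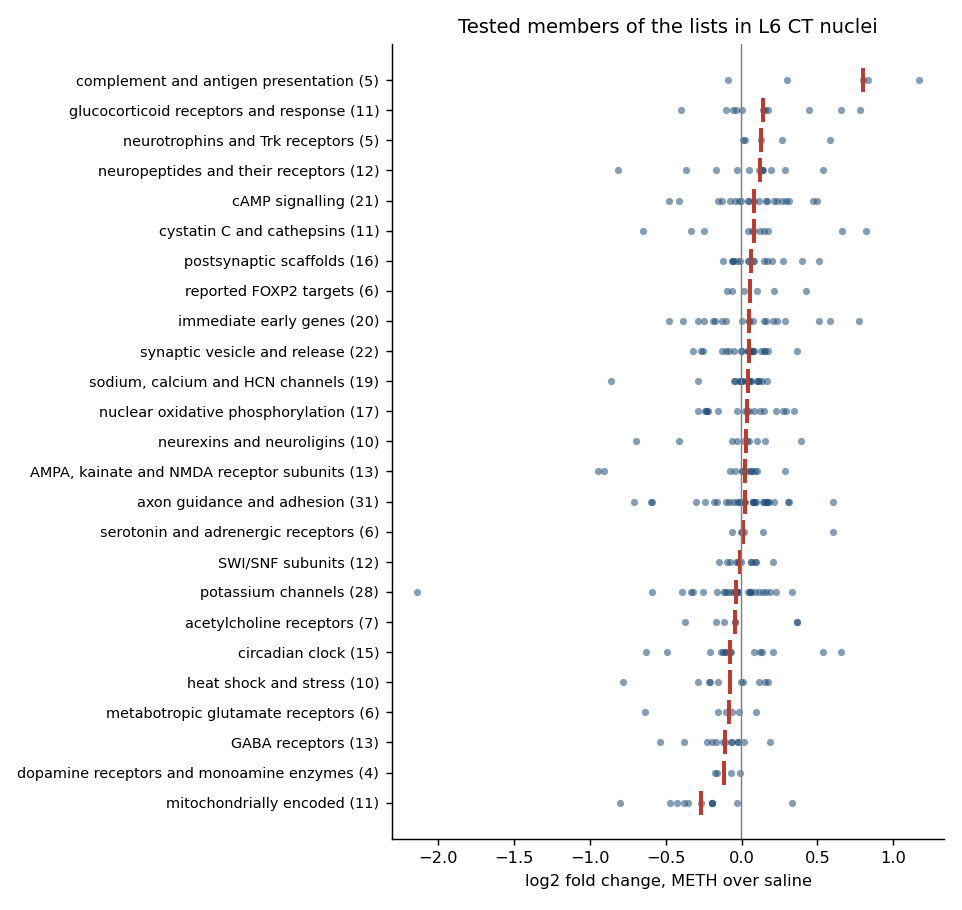
Log2 fold change of METH over saline for each tested member of the function lists in L6 CT nuclei (points), with the list's median (red bar) and the number of tested members in brackets; the grey line is the median of all genes tested. Most medians lie near 0, with complement and antigen presentation highest at 0.80 and mitochondrially encoded genes lowest at -0.27.

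Intracellular signalling, hormone response and clock genes held no gene that passed. Of 21 cAMP signalling genes 13 were positive (median 0.08), among them Adcy9 and the phosphodiesterase gene Pde4a at 171 and 122 against 105 and 109 CPM (0.47). Of 11 glucocorticoid receptor and response genes 7 were positive (0.14). Besides Fkbp5, Zbtb16, a zinc finger repressor induced by glucocorticoids, stood at 148 and 219 against 126 and 141 CPM (0.45). Of 15 clock genes 6 were positive (-0.07), with Dbp, an output gene of the clock, at 15.3 and 18.5 against 26.0 and 26.4 CPM (-0.63, SE 0.227) and Clock at 156 and 152 against 129 and 138 CPM (0.21). Of 12 SWI/SNF chromatin subunits 5 were positive (-0.01), with Arid1a at 0.21 and Smarcc2 at -0.15. Of 6 reported FOXP2 targets 4 were positive (0.06), with Vldlr at 0.43 and Foxp1 at 0.10.

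Mitochondrially encoded genes were mostly lower and genes of microglia mostly higher in the METH libraries, with 0 members of either list passing. Of 11 mitochondrially encoded genes 1 was positive (median -0.27), with Mt-co3 at 119 and 86.6 against 155 and 129 CPM (-0.42, SE 0.146) and Mt-nd1 at 63.8 and 39.1 against 80.6 and 67.5 CPM (-0.47). These transcripts are not made in nuclei, and METH replicate 2 was the lowest library, without which the median was -0.07. Of 17 nuclear oxidative phosphorylation genes 10 were positive (0.04), with Sdha at 0.29 and Cox7c at 0.35. Of 10 heat shock and stress genes 4 were positive (-0.08), with Gadd45a at 9, 5, 10 and 15 UMIs and Hspa5 at -0.29. Lysosomal cathepsins with Cst3 had 8 of 11 positive (0.08), with Psap, the precursor of the saposins, at 65.0 and 54.4 against 84.5 and 70.3 CPM (-0.33).

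All 9 tested genes of the microglia list had positive fold changes, with a median of 0.66, and 6 had both METH libraries above both saline libraries, against 15.0% of all genes tested. C1qa, a complement subunit made by microglia, stood at 15.3 and 11.1 against 7.80 and 7.38 CPM (0.83) and C1qb at 11.9 and 8.98 against 4.55 and 7.03 CPM (0.80). None passed. The 12 genes of the list summed to 193, 183, 136 and 161 CPM in L6 CT nuclei and to 145, 152, 125 and 121 CPM in the other 5 panels, so METH libraries were higher in both. Without saline replicate 1 the median was 0.14 over 11 tested genes. Of 5 complement and antigen presentation genes, 3 of which are microglial C1q genes, 4 were positive (0.80). The part of microglial RNA in these values was not tested.

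The other foreign lists differed from each other in direction with the drug. Of 7 tested astrocyte genes 5 were positive (median 0.005), with Apoe at 98.2 and 105 against 96.2 and 64.3 CPM (0.39) and Slc4a4 at -0.10. Of 9 oligodendrocyte genes 6 were positive (0.10), with Mobp at 40, 20, 10 and 28 UMIs and Mbp at 0.37. The oligodendrocyte list summed to 291, 196, 201 and 225 CPM in L6 CT nuclei, so METH replicate 1 was highest and the other 3 were close. Of 4 tested inhibitory genes 1 was positive (-0.47), Erbb4 among the negative ones, and the median was 0.33 over 5 tested genes without saline replicate 1. Of 4 genes of oligodendrocyte precursors 0 were positive (-0.55), and 3 had both METH libraries below both saline libraries, against 19.0% of all genes tested. The precursor median was -0.26 without saline replicate 1, and -0.12 over 2 tested genes with flagged doublets left out. Of 5 striatal neuron genes 3 were positive (0.16).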

How the data were processed

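Single nuclei of rat orbitofrontal cortex were captured with 10x 3' v3.1 chemistry, per the labels' protocols. The authors deposited UMI counts for each gene and barcode, which came from Cell Ranger 7.0.0 per the submitters' processing notes. The notes name hg38 while the 25399 gene identifiers are rat. No source used here gives the rat build, and no coordinates are printed.

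The counts were read with Scanpy 1.11.5, nuclei were chosen by the rule, and the counts of each library's L6 CT nuclei were added up, because the library and not the nucleus is the replicate. METH and saline sums were compared by edgeR 4.0.16's quasi-likelihood F test (two-sided, robust, TMM, filterByExpr), with Benjamini-Hochberg adjustment over all genes tested and calls at 0.05. The SE is the log2 fold change over the square root of F. CPM is the count over the library's L6 CT total; folds against other panels have 10 CPM added. Oligodendrocyte-marker nuclei passed the quality gates and had at least 3 UMIs of Mog, Mobp and Mag together after thinning to 1500 UMIs. They had no UMI of Slc17a7 or Camk2a and at most 1 UMI of Gad1 and Gad2. DESeq2 1.42.0 and other gates were alternatives. Scripts were checked on simulated counts.

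Members, gene lists and tests were chosen with earlier results of these data known. Named genes were those called or with the 8 smallest p per direction, up to 4 of the class-by-treatment fit, the 20 highest and 10 lowest against other panels, 2 of smallest p per list and a set given whatever their result. Those named as called or among the 8 smallest p also had to have no placeholder name. Their METH libraries both had to lie on the same side of both saline libraries. Lists of other neuron types, precursors, vessels and blood are mostly given without their 2 members of smallest p. A few list members are not reported here. Counts of antisense or near-identical genes may be split or shared.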

Additional observations from a re-analysis of the deposited data

Results flagged for a closer look

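Col5a3 differed in its METH effect between L6 CT nuclei and the other 5 excitatory panels by -3.06 on the log2 scale, the only gene of 13630 for which edgeR's class-by-treatment term passed (adjusted p = 0.0422). DESeq2 gave -3.05 with an adjusted p of 1. The value rests on 4, 4, 21 and 27 UMIs in the class, and both METH libraries had fewer than both saline libraries.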

How the results depend on the processing

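The count of genes called between METH and saline, 1 as reported, was 0 with DESeq2, at least 5 panel UMIs, doublets left out, thinning, equal numbers of nuclei, the lower excitatory minimum or no Gad1 or Gad2 UMI, and 20 with no filter on low counts; without METH replicate 1 or 2 it was 31 or 35 and without saline replicate 1 or 2 it was 3 or 87, where the lone library of a group is assumed to vary like the others. The class-by-treatment count of 1 was 0 with DESeq2, thinning or no robust estimation, 19 with no filter, 3 with no Gad1 or Gad2 UMI, and 3, 3, 8 and 34 without the same libraries. The settings on the excitatory minimum and on Gad1 and Gad2 were chosen after seeing the data. The share difference of -1.17 ranged from -3.36 to 1.02 with a library left out and was 0.0742 among nuclei of the excitatory gate. The deviations of same-numbered libraries from their group means had a correlation of -0.0079. With 2 libraries per group both numbers give the same value, which cannot show whether the replicate numbers pair the libraries. With the replicate block 32 genes were called, 12 higher and 20 lower. Of 74 genes tested over up to 17 alternatives, 16 changed sign in at least 1. With thinning these were Foxp2 (-0.112), Dnah6 (-0.147), Thsd7b (-0.0802), Adra1a (-0.286), Lrrtm4 (0.206) and Mt-co3 (0.0958), and with equal numbers of nuclei Fos (0.0167), Slc4a4 (0.00221), Maoa (0.0838) and Maob (0.124). With a library left out, the log2 fold change ran from -0.140 to 0.415 for Syt6, from -0.0531 to 0.242 for Zfpm2, from -0.0478 to 0.155 for Arc, from -0.175 to 0.427 for Npas4, from -0.260 to 0.0688 for Slc4a4, from -0.0608 to 0.680 for Mbp, from -0.506 to 0.391 for Maob and from -0.800 to 0.0496 for Hspa5. The cause was not tested. Genes with few UMIs are limited by depth.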

Other observations

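L6 CT nuclei with Foxp2 as their only panel gene and those with Syt6 or Dnah6 were set side by side in class genes that the rule did not use, as a description with no test. Tle4 stood at 1251, 1077, 1061 and 1154 CPM in the first and at 980, 1001, 1011 and 1110 CPM in the second, in the order METH replicates 1 and 2 and saline replicates 1 and 2. Zfpm2 stood at 1488, 1514, 1208 and 1253 CPM and at 1734, 1508, 1473 and 1772 CPM. Thsd7b stood at 1196, 1451, 1087 and 1369 CPM and at 1569, 1591, 1372 and 1393 CPM, and Nfia at 987, 1054, 789 and 922 CPM and at 1112, 1099, 938 and 1090 CPM. Nuclei with Foxp2 alone were higher in Tle4 and lower in Thsd7b and Nfia in all 4 libraries.

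Homer1, a postsynaptic scaffold gene with an activity-induced short form, stood at 2721, 1620, 1379 and 1687 CPM, so METH replicate 1 stood alone; it was chosen after its values were seen. Il1rapl2, an interleukin-1 receptor family member of synapses, was concentrated in few L6 CT nuclei: of its 368, 353, 493 and 486 UMIs the 4 highest nuclei held 39.95%, 54.96%, 25.6% and 53.9%, and 1 nucleus of saline replicate 2 held 131. The gene belongs to the L4/5 IT list. It stood at 156, 186, 320 and 171 CPM in the class against 1228.5, 1011, 1270 and 1122 CPM in the other panels.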
